A study of Mus musculus with 8 samples.

Results

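Accessible chromatin was examined at the genes of the core autophagy machinery in splenic regulatory T (Treg) cells with and without Flcn. The group holds 39 named genes, chosen for the known roles of their proteins. A peak belonged to a gene when that gene was the nearest RefSeq protein-coding gene, at most 50000 bp from the peak. By this rule 153 of the 57199 deposited peaks were assigned to 38 of the 39 genes, and Atg4b received none. Of the 153 peaks, 49 were promoter peaks, lying within 1000 bp of the gene's start, and 104 were other peaks. For the 6 genes without a listed start, either end of the gene was used instead, which gave 5 of the 49. ATAC-seq, in which a transposase inserts adapters into open DNA, was run on 4 WT libraries and 4 libraries from cells whose donor carried Foxp3Cre and Flcn fl/fl (Flcn KO). All 8 libraries came from CD4+ Foxp3-YFP+ cells that were CD45.2+ and CD45.1-, sorted from mixed bone-marrow chimeras. Each chimera therefore held cells of another donor that were not profiled. Foxp3Cre is designed to act in Foxp3-expressing cells, and where it acted was not tested here. The labels give no age and do not say whether the WT donors also carried Foxp3Cre.

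Autophagy encloses cytoplasm in a double membrane and delivers it to the lysosome. The ULK1 kinase complex starts the process, the class III PI3-kinase complexes mark the membrane with a phosphoinositide, ATG2, ATG9 and WIPI proteins supply lipid, and 2 ubiquitin-like conjugation systems attach ATG8 proteins to the membrane, to which cargo receptors bind. In Treg cells autophagy is known to support survival and lineage stability. Flcn encodes folliculin, a lysosomal regulator of the transcription factors TFEB and TFE3, and these bind E-box sequences and are known to regulate autophagy genes. The comparison of Flcn KO with WT shows whether chromatin opening at these genes differs without Flcn.

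Library totals ran from 2723344 to 5111728 counts. All 6 Treg genes examined had peaks, including Foxp3 and Il2ra. Peaks were also assigned to 5 of 8 B cell genes and 4 of 7 myeloid genes, among them Pax5, Ebf1 and Spi1, while Cd79b, Ms4a1, Lyz2, Csf1r and Adgre1 had none. In CPM (counts scaled to library size), the B cell list summed to 50.7 to 72.7 in WT and 46.8 to 56.9 in Flcn KO, and the myeloid list to 53.1 to 73.1 and 44.6 to 57.9. The Treg list summed to 1160 to 1270 and 1200 to 1400, the CD8 T cell list to 26.1 to 37.8 and 21.9 to 47.2, and the erythroid list to 24.6 to 29.0 and 28.9 to 38.1. The NK cell list summed to 241 to 276 and 254 to 335, nearly all of it at Klrb1c. The groups overlapped for the sum of every list. Within the lists, Cd22 (6.89 to 10.8 CPM in WT, 2.40 to 5.08 in Flcn KO) and Itgam (8.92 to 14.1 and 6.86 to 7.82) did not overlap, and the other genes with peaks did. At an adjusted p below 0.05 (edgeR), 3 of 71 tested Treg list peaks were higher in Flcn KO and 1 lower. Of 8 B cell list peaks 1 was lower, and of 13 NK cell list peaks 1 was higher and 1 lower. Over all tested peaks, 2.37% were called. The other lists had 0 calls. The part of these lists in the results was not tested. At Flcn itself, neither of the 2 tested peaks was called. A pair of weaker peaks inside the gene (59798675 and 59799302 on chromosome 11) did not pass the filter on low counts, with 0 to 2 counts per library in WT and 2 to 21 in Flcn KO. The labels do not say which exons are floxed, so whether any of these peaks reports the deletion is not known here. In bulk libraries, a site open in fewer cells and a site less open in each cell cannot be told apart.

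Of the peaks at core autophagy genes, 1 differed between the genotypes. It lay inside Atg10, whose product is the E2-like enzyme that conjugates ATG12 to ATG5, and it fell by 1.39 on the log2 scale in Flcn KO (SE 0.26; adjusted p = 0.00130, edgeR's quasi-likelihood test). Of the 153 peaks, 121 passed the filter on low counts and were tested, among them all 49 promoter peaks. The 32 untested peaks were weak, with at most 30 counts in any library. Of the 121 tested peaks, 1 was called lower (0.826%) and 0 were called higher, where a call is an adjusted p below 0.05. Over all 47859 tested peaks in the genome, 1.02% were called lower, 1.35% higher and 2.37% in either direction. The share among the autophagy genes is thus near the background and is no result about these genes as a group. At an unadjusted p below 0.05, 5 of the 121 were higher and 10 lower, 12.4% in all. The background shares were 6.87% higher, 5.99% lower and 12.9% in either direction.

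Promoter and other peaks were also read apart. None of the 49 promoter peaks was called, where 0.525% of all 11998 tested promoter peaks were. At an unadjusted p below 0.05, 1 promoter peak was higher and 5 were lower, where 2.55% and 4.83% of all tested promoter peaks were, and DESeq2's Wald test also called 0. Of the 72 tested other peaks, 1 was called (1.39%), against 2.72% of all tested other peaks. The median log2 fold change was −0.10 over the promoter peaks of the autophagy genes and −0.04 over all tested promoter peaks. For other peaks the medians were −0.02 and 0.03. At promoters 33 of 49 peaks had a log2 fold change below 0 (67.3%), and so had 57.8% of all tested promoter peaks. The data limited large changes at most promoters, since the 95% interval of the change lay within 2-fold either way at 40 of the 49 promoter peaks (81.6%, against 86.2% of all tested promoter peaks). At other peaks, which held fewer counts, this was so at 36 of 72 (against 57.2% of all tested other peaks), so differences of 2-fold could not be bounded at the remainder.

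**Figure D1:**
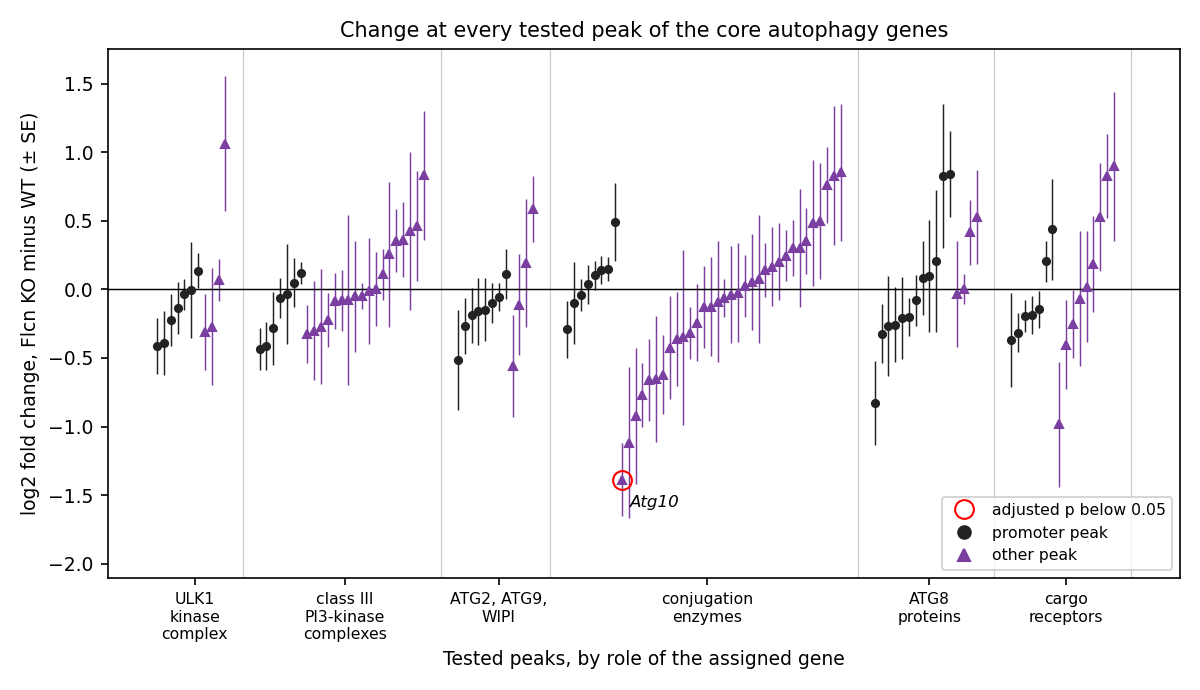
Log2 fold change (Flcn KO minus WT, points with ± SE) at each of the 121 tested peaks, grouped along the x axis by the role of the gene and ordered by size within promoter peaks (circles) and other peaks (triangles). The ringed Atg10 peak at −1.39 is the peak with an adjusted p below 0.05, and points on both sides of 0 occur in every group.

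Promoter accessibility spanned a wide range. A promoter peak was found for 34 of the 39 genes. Levels were compared between genes as CPM per kb of peak, taking the strongest promoter peak of each gene. The median was 46.4 CPM per kb over the 34 autophagy genes and 52.6 over the 10104 genes with a tested promoter peak. The order was led by Uvrag at 328 CPM per kb, Atg10 at 267, Atg9a at 214, Tax1bp1 at 148 and Atg3 at 124. The Atg9a and Atg3 peaks are also within 1000 bp of the starts of Ankzf1 and Slc35a5, so these levels cannot be given to the autophagy genes alone. Shared peaks of Atg12 (119 CPM per kb), Atg4a (106) and Atg4b (52.8) were assigned to neighbouring genes and are not in the order. It ended with Atg4c and Gabarapl1, both at 14.0, Becn1 at 13.1, Ambra1 at 11.8 and Wdr45 at 9.07. Neighbours in this order were not set apart at the top: Uvrag overlapped Atg10 and Atg10 overlapped Atg9a in single libraries. These 3 genes did not overlap those below them, and the libraries of the lowest genes overlapped one another.

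**Figure D2:**
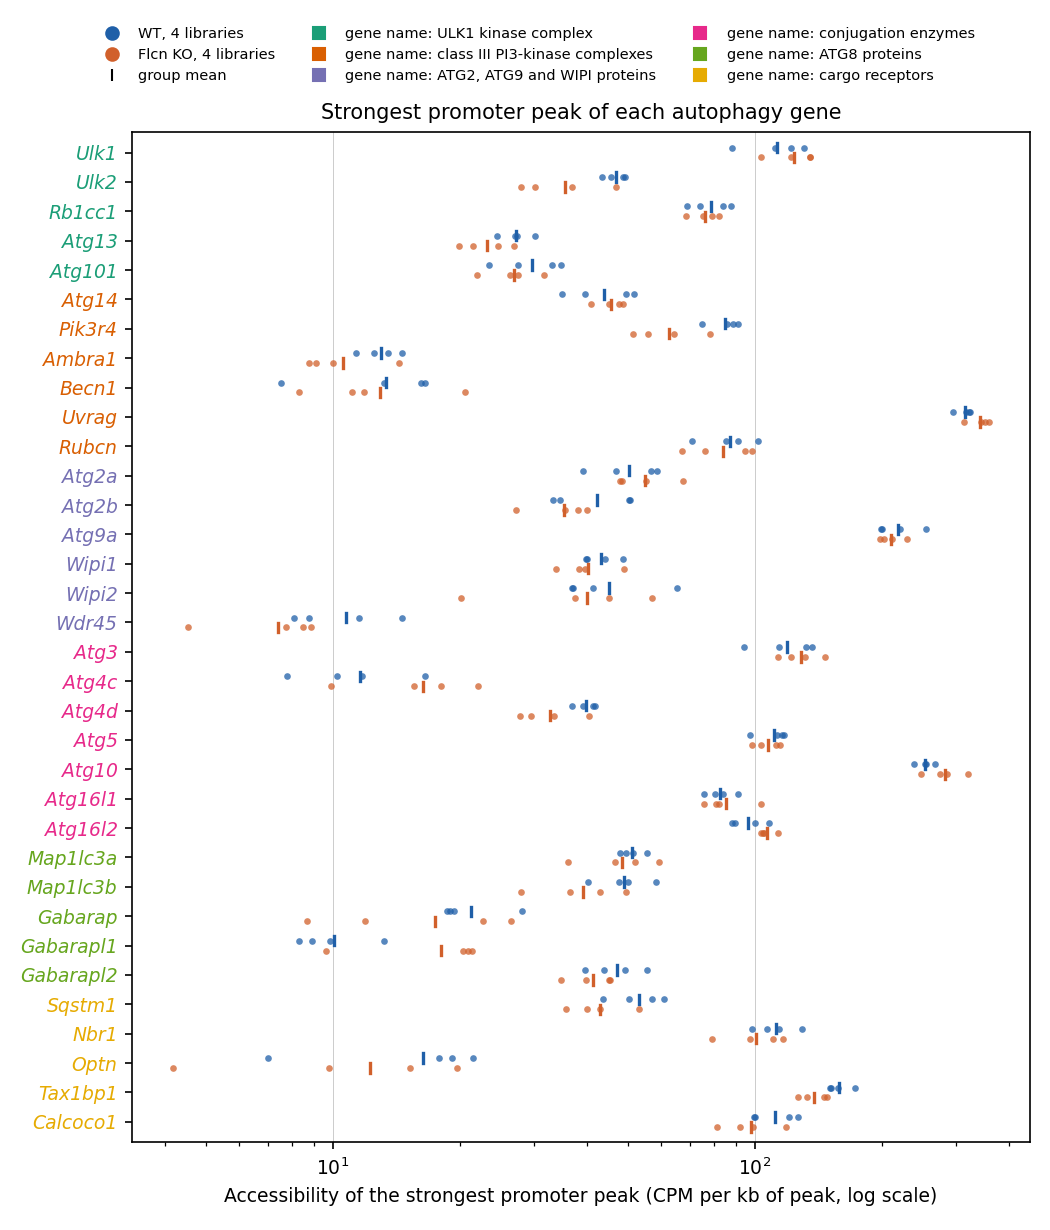
Accessibility of the strongest promoter peak of 34 autophagy genes in CPM per kb of peak (log scale), with 1 point per library and a bar at each group's mean, WT in blue and Flcn KO in orange, and gene names coloured by role. Genes span from 9.07 for Wdr45 to 328 for Uvrag, and the WT and Flcn KO points overlap in every gene but Tax1bp1.

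Sequence was examined where the promoter values bear on it. RefSeq promoter windows (GRCm38.p6, from 250 bases before to 50 after the start) were given for 33 of the 39 genes, 38 windows in all. Their median GC content was 59.7%, against 56.3% over all 21262 windows of protein-coding genes. The E-box CACGTG, read on both strands, was in 5 of the 38 windows (13.2%) and in 7.84% of all windows. Its longer form TCACGTG, the core of the sequence bound by TFEB and TFE3, contains the E-box and was in 4 windows (10.5%), those of Atg3, Rubcn, Atg14 and Atg7, and in 4.39% of all windows. With so few windows, these shares describe the promoters and are not tested. TCATGTG was in 0 windows and 2.99% of all, and the palindromic NRF1 motif in 0 and 1.33%. CCGGAAG was in 4 (10.5%) and 11.6%, TGACGTCA in 2 (5.26%) and 2.23%, and CCAAT in 11 (28.9%) and 38.2%.

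The 250 bases before the start are shown for 4 genes, 5′ to 3′ on the gene's strand. Atg3 and Rubcn are shown for TCACGTG under a promoter peak, with that motif in capitals on either strand. Pik3r4, the promoter peak with the smallest p among those lower in Flcn KO, is shown with a CCAAT match, which reads ATTGG, in capitals. Gabarapl1, the promoter peak with the smallest p among those higher, held none of the motifs searched and has no capitals.
Atg3, chr16:45158579-45158828, plus strand: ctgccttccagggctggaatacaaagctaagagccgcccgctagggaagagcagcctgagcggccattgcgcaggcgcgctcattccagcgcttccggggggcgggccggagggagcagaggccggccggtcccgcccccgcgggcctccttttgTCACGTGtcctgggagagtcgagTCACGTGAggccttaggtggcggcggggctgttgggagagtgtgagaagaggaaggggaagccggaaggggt
Rubcn, chr16:32868367-32868616, minus strand: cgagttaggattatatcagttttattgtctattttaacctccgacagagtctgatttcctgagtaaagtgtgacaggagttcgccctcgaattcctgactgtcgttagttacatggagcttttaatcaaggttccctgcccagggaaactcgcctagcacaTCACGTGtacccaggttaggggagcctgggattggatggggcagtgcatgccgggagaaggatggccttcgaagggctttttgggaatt
Pik3r4, chr9:105642745-105642994, plus strand: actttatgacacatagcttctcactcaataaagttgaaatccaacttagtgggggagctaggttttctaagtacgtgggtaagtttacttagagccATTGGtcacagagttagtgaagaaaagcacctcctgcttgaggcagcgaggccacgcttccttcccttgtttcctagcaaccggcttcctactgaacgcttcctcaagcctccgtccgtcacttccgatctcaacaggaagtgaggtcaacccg
Gabarapl1, chr6:129532942-129533191, plus strand: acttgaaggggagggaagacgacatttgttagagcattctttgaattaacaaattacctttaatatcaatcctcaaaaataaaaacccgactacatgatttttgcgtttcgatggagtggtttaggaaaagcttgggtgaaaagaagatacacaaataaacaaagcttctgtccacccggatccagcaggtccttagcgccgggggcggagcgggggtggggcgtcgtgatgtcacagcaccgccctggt
The E-box CACGTG within the motif began 94 and 71 bases before the start in Atg3, 88 before it in Rubcn and 1 before it in Atg14. The peaks at these starts had log2 fold changes of 0.10 at Atg3 (SE 0.11), −0.06 at Rubcn (SE 0.15) and 0.05 at Atg14 (SE 0.18), and none was called. The 95% interval was −0.11 to 0.32 at Atg3, −0.36 to 0.23 at Rubcn and −0.32 to 0.42 at Atg14. A match is a description of letters, and no binding was measured. The start listed for Atg7 lies 28.0 kb inside the gene, where no peak was found, so that match has no accessibility value.

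At the ULK1 kinase complex, which starts autophagy under control of mTORC1 and AMPK, 12 peaks were assigned to the 5 genes and none of the 11 tested was called. The kinase gene Ulk1 had a promoter peak (chromosome 5, 110809937 to 110810431) of 56.0 ± 9.03 CPM in WT and 61.3 ± 7.40 in Flcn KO (SD, n = 4). Its log2 fold change was 0.14 with a 95% interval of −0.12 to 0.39. Ulk2, its paralog, had values of 18.7, 19.6, 20.9 and 21.2 CPM in WT and 15.8, 12.0, 12.9 and 20.2 in Flcn KO at its stronger promoter peak. Flcn KO replicate 4 lay within the WT range and the other 3 below it. The log2 fold change was −0.41 (SE 0.20; edgeR adjusted p = 0.382). At the second Ulk2 promoter peak the groups did not overlap (log2 fold change −0.39, adjusted p = 0.507 by edgeR). Rb1cc1, which encodes the scaffold FIP200, had 72.3 ± 7.97 CPM in WT and 70.1 ± 5.27 in Flcn KO, a log2 fold change of −0.04 (95% interval −0.26 to 0.19). The promoter peaks of Atg13 and Atg101, which encode the HORMA-domain subunits, had log2 fold changes of −0.22 and −0.14. A weak peak of Atg13, 4.75 kb from the start, held 2.08, 1.78, 2.55 and 1.48 CPM in WT and 4.69, 3.21, 1.49 and 7.62 in Flcn KO. Its groups overlapped through Flcn KO replicate 3, and it was not called (log2 fold change 1.06, SE 0.49, edgeR adjusted p = 0.344).

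At the class III PI3-kinase complexes 35 peaks were assigned to 7 genes, 25 were tested and none was called. Pik3r4, which encodes the VPS15 subunit, had 1 peak, at the promoter shown above (chromosome 9, 105642717 to 105643166). It held 38.6, 41.0, 33.7 and 39.9 CPM in WT and 35.2, 28.9, 23.1 and 25.1 in Flcn KO. Flcn KO replicate 1 lay above the lowest WT library and the other 3 below all WT libraries. The log2 fold change was −0.44 (SE 0.16; edgeR adjusted p = 0.153). Without Flcn KO replicate 1 the peak was called lower, at a log2 fold change of −0.57 and an edgeR adjusted p of 0.0369.

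No start is listed for the catalytic subunit gene Pik3c3, and no peak lay within 1000 bp of either gene end. Its strongest peak, 6977 bp from the nearer end, held 137 CPM in WT and 133 in Flcn KO (293 CPM per kb over all libraries). Whether that peak lies at a start of Pik3c3 is not known here. Becn1, which encodes the Beclin 1 scaffold, had a weak peak of 2.91, 6.25, 5.10 and 6.40 CPM in WT and 4.30, 3.21, 7.96 and 4.57 in Flcn KO. The groups overlapped throughout, with a 95% interval of −0.77 to 0.71 for the log2 fold change. Uvrag and Atg14 encode alternative subunits that direct the kinase to endosomes or to autophagy. Uvrag had 17 peaks, and its promoter peak (chromosome 7, 99141009 to 99141665) was the strongest of the set. It held 208, 194, 211 and 212 CPM in WT and 206, 236, 230 and 225 in Flcn KO, and the log2 fold change was 0.12 (SE 0.08, adjusted p = 0.603 by edgeR). Atg14 had 21.8 ± 4.00 CPM in WT and 22.6 ± 1.74 in Flcn KO.

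Rubcn encodes Rubicon, an inhibitor of the UVRAG-containing complex, and 2 starts are listed for it. The peak at the start with TCACGTG (chromosome 16, 32868064 to 32868553) held 42.8 ± 6.28 CPM in WT and 41.2 ± 7.34 in Flcn KO. The peak at the start at the gene's end (32877379 to 32877994) held 30.3, 24.5, 25.5 and 28.5 CPM in WT and 16.8, 21.4, 20.6 and 24.0 in Flcn KO. The groups did not overlap there, and the log2 fold change was −0.41 (SE 0.17; edgeR adjusted p = 0.280). This second peak also lies within 1000 bp of the start of Fyttd1, so it cannot be given to Rubcn alone. Ambra1, which encodes a regulator of Beclin 1, had 9.93 ± 1.06 CPM in WT and 8.06 ± 1.97 in Flcn KO at its promoter.

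At the genes of the ATG2 lipid-transfer proteins, the ATG9 scramblase and the phosphoinositide-binding WIPI proteins, 14 peaks were assigned to 6 genes and none of the 12 tested was called. Atg9a had 104 ± 12.1 CPM in WT and 99.9 ± 6.64 in Flcn KO at its promoter peak, which is also within 1000 bp of the start of Ankzf1 (log2 fold change −0.06, 95% interval −0.27 to 0.15). The strongest promoter peaks of Atg2a and Atg2b had log2 fold changes of 0.11 and −0.27. A Wipi1 peak 19.5 kb from the start (chromosome 11, 109591497 to 109591912) held 10.4, 8.03, 8.16 and 9.84 CPM in WT and 10.2, 15.5, 14.9 and 14.5 in Flcn KO. All Flcn KO libraries but replicate 1 lay above the WT libraries, and the log2 fold change was 0.58 (SE 0.24; edgeR adjusted p = 0.255). The Wipi1 promoter peak had a log2 fold change of −0.10. Wipi2 held 23.9 ± 7.24 CPM in WT and 21.2 ± 8.18 in Flcn KO. Wdr45, on chromosome X, had the weakest strongest promoter peak of the set, at 5.81, 7.36, 4.08 and 4.43 CPM in WT and 3.91, 4.27, 4.48 and 2.29 in Flcn KO. The groups overlapped (log2 fold change −0.51, SE 0.36, edgeR adjusted p = 0.614).

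The conjugation enzymes held 55 of the peaks and the called one. Of their 41 tested peaks, 1 was called lower and 0 higher. The gene for the E2-like enzyme ATG3, which attaches ATG8 proteins to lipid, had a promoter peak (chromosome 16, 45158256 to 45159406) of 131, 108, 157 and 152 CPM in WT and 130, 151, 140 and 169 in Flcn KO. The groups overlapped. That peak is also within 1000 bp of the start of Slc35a5. Atg5 had 60.9 ± 4.99 CPM in WT and 58.8 ± 4.17 in Flcn KO at its promoter, and Atg16l1, which encodes its partner, 39.7 ± 3.14 and 41.0 ± 5.84. The 95% intervals of the log2 fold change were −0.28 to 0.19 and −0.25 to 0.32. Atg16l2 had a log2 fold change of 0.14.

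Of the genes of the ATG4 proteases, which process ATG8 proteins, Atg4c and Atg4d had a promoter peak each, with log2 fold changes of 0.49 (SE 0.29) and −0.29 (SE 0.21). Atg4a and Atg4b had no promoter peak of their own because the peak at each start went to a neighbour whose end was nearer. At the start shared by Atg4b and Thap4 the peak held 43.3 ± 3.32 CPM in WT and 35.1 ± 5.64 in Flcn KO, with −0.29 as the log2 fold change (SE 0.14, adjusted p = 0.376 by edgeR). At the start shared by Atg4a and Psmd10 it held 57.1 ± 5.50 and 52.3 ± 4.66. Atg12, which encodes the ubiquitin-like protein joined to ATG5, shares its promoter peak with Ap3s1, at 95.9 ± 6.44 CPM in WT and 96.6 ± 15.6 in Flcn KO.

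Atg7, which encodes the E1-like enzyme of both conjugation systems, had 11 peaks and none at a listed start. The strongest (chromosome 6, 114656886 to 114657273) held 13.9 CPM in WT and 8.48 in Flcn KO, with a log2 fold change of −0.66 (edgeR adjusted p = 0.336). Without Flcn KO replicate 1 it was called lower, at a log2 fold change of −1.12 and an edgeR adjusted p of 0.0188.

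Atg10 had 23 peaks, the most of any gene in the set, over a span of 289378 bp on chromosome 13 (90935348 to 91224725). Of these, 19 were tested. The promoter peak (91223640 to 91224339) held 167, 178, 187 and 178 CPM in WT and 173, 192, 199 and 224 in Flcn KO. The groups overlapped, and the log2 fold change was 0.15 (95% interval −0.03 to 0.33; edgeR adjusted p = 0.519). The called peak (91178458 to 91178898) lay inside the gene, 45.1 kb from the start, and its position relative to exons was not determined. It held 17.9, 20.5, 10.2 and 13.8 CPM in WT and 7.04, 5.88, 5.97 and 4.57 in Flcn KO. Every Flcn KO library lay below every WT library, and the mean was 15.6 ± 4.54 in WT and 5.86 ± 1.01 in Flcn KO (SD, n = 4), a fitted ratio of 0.382. It was called lower under all 16 alternative analyses in which it was tested anew, with log2 fold changes from −1.54 to −1.23.

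Other Atg10 peaks had values in both directions. The peak at 91038052, 186 kb from the start, held 12.9, 18.3, 12.7 and 15.7 CPM in WT and 9.39, 9.62, 7.46 and 8.38 in Flcn KO. The groups did not overlap, and the log2 fold change was −0.77 (SE 0.24; edgeR adjusted p = 0.0776). The peak at 91155474, 68.2 kb from the start, held 5.40, 5.80, 5.61 and 8.36 CPM in WT and 9.78, 9.08, 14.4 and 9.14 in Flcn KO, the opposite order without overlap (log2 fold change 0.76, SE 0.28, edgeR adjusted p = 0.170). Between groups, 13 of the 121 tested peaks did not overlap, 5 with Flcn KO higher and 8 with Flcn KO lower (10.7%). Of all tested peaks, 7.59% did not overlap, 4.03% with Flcn KO higher and 3.56% lower. Among the 13, 4 were assigned to Atg10, and of these only the peak at 91155474 was higher in Flcn KO. They include a peak at 91093216 that was lower in Flcn KO (log2 fold change −0.62, SE 0.29, edgeR adjusted p = 0.343). The strongest Atg10 peak away from the promoter, 129 kb from the start, held 41.6 CPM in WT and 39.9 in Flcn KO.

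**Figure D3:**
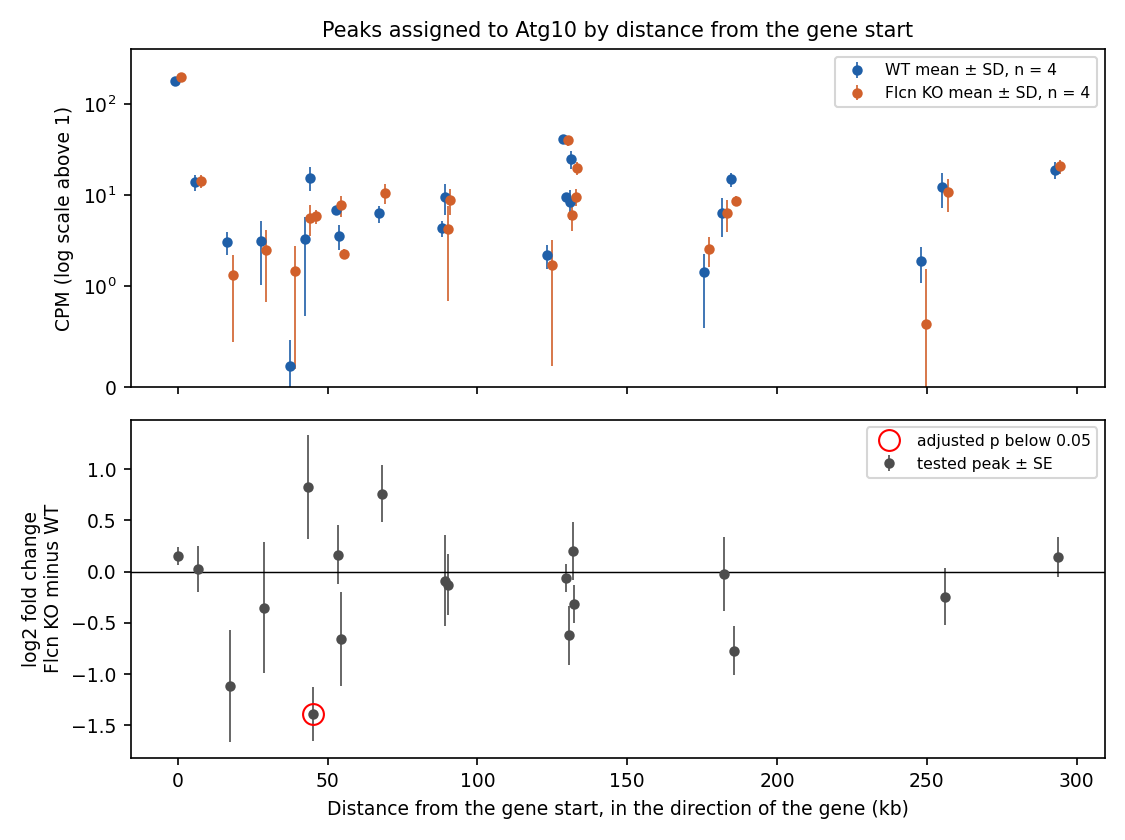
Peaks assigned to Atg10 by distance from the gene's start (kb, x axis), with CPM as mean ± SD of 4 libraries in WT (blue) and Flcn KO (orange) in the upper panel (log scale above 1) and the log2 fold change ± SE of the 19 tested peaks in the lower panel. The ringed peak at 45.1 kb fell, while the promoter peak at 0 kb, at 177 CPM in WT and 197 in Flcn KO, did not pass the test.

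At the ATG8 genes, whose products are bound to the growing membrane, 16 peaks were assigned to 5 genes, all were tested and none was called. Map1lc3b, which encodes LC3B, had 3 promoter peaks. The one 348 bp from the start (chromosome 8, 121590786 to 121591129) held 6.43, 9.59, 8.67 and 7.63 CPM in WT and 4.30, 5.34, 3.98 and 4.57 in Flcn KO. The groups did not overlap, and the log2 fold change was −0.83 (SE 0.31; edgeR adjusted p = 0.185). The strongest Map1lc3b promoter peak had a log2 fold change of −0.32 (SE 0.22). A stronger site 4.61 kb away held 61.5 CPM in WT and 61.6 in Flcn KO.

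Gabarapl1, the promoter shown above without a motif, had 4 promoter peaks. The strongest (chromosome 6, 129533037 to 129533537) held 4.15, 4.46, 6.63 and 4.92 CPM in WT and 10.2, 4.81, 10.4 and 10.7 in Flcn KO. Flcn KO replicate 2 lay within the WT range and the other 3 above it, and the log2 fold change was 0.84 (SE 0.31; edgeR adjusted p = 0.179). Gabarap had a weak promoter peak of 4.98, 4.91, 5.10 and 7.38 CPM in WT and 3.13, 6.95, 5.97 and 2.29 in Flcn KO, with overlapping groups. Gabarapl2 held 48.1 ± 7.08 and 42.2 ± 5.16 CPM at its strongest promoter peak, and Map1lc3a 22.5 ± 1.43 and 21.4 ± 4.32.

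At the cargo receptors, which link cargo to ATG8 proteins, 21 peaks were assigned to 5 genes and none of the 16 tested was called. Sqstm1, which encodes p62, had 1 peak, at its promoter (chromosome 11, 50210030 to 50210961). It held 40.7, 46.8, 56.9 and 53.1 CPM in WT and 33.2, 40.1, 37.3 and 49.5 in Flcn KO. Flcn KO replicate 4 lay within the WT range, and the log2 fold change was −0.31 (SE 0.14; edgeR adjusted p = 0.323). Tax1bp1 had a promoter peak of 59.8, 62.5, 60.2 and 68.4 CPM in WT and 52.8, 58.8, 50.2 and 57.9 in Flcn KO, without overlap (log2 fold change −0.19, SE 0.12). A Tax1bp1 peak 21.6 kb from the start showed the opposite order without overlap, at 3.32, 5.80, 5.10 and 4.43 CPM in WT and 8.60, 8.28, 8.45 and 7.62 in Flcn KO. Its log2 fold change was 0.83 (SE 0.31; edgeR adjusted p = 0.178). Nbr1, Optn and Calcoco1 had promoter log2 fold changes of −0.15, −0.37 and −0.19.

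**Figure D4:**
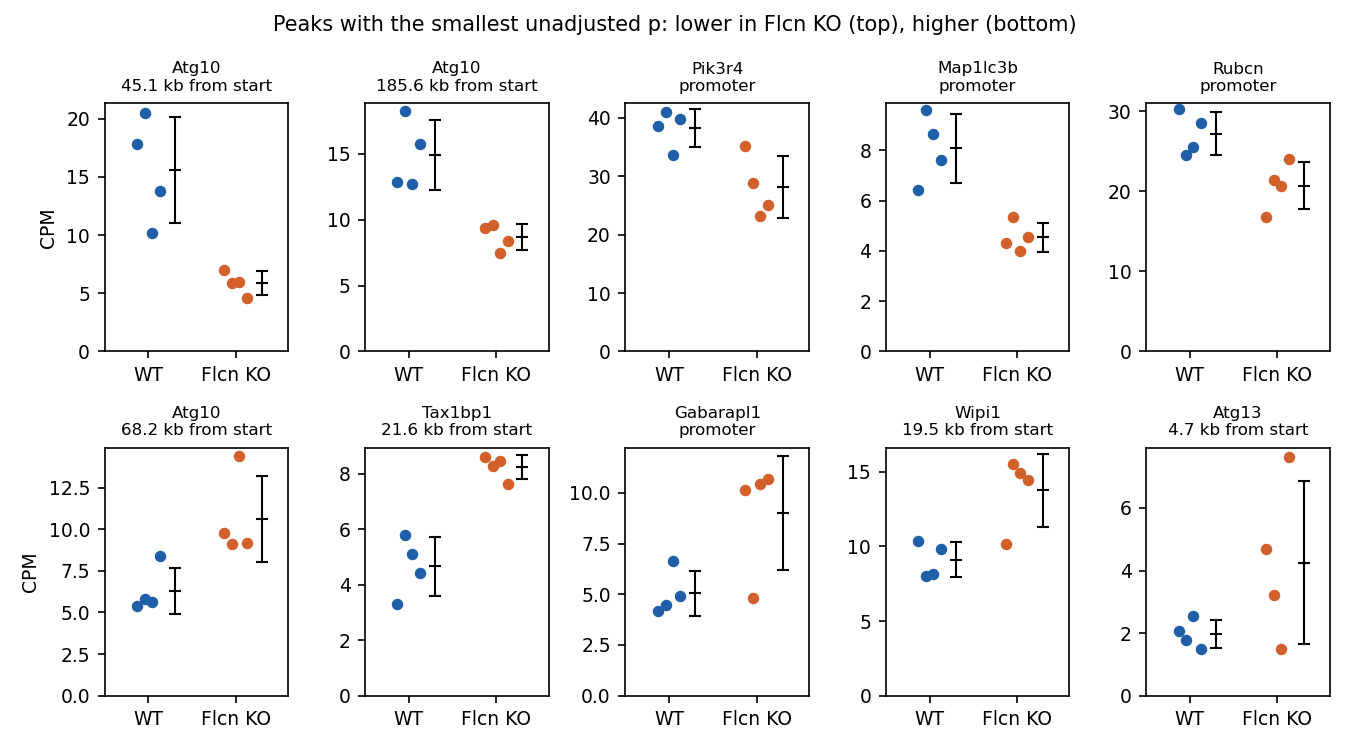
CPM in each library (points), with mean ± SD of 4 libraries beside them, for the 5 peaks with the smallest unadjusted p among those lower in Flcn KO (top) and the 5 among those higher (bottom), each panel with its own axis from 0. The Atg10 peak 45.1 kb from the start passed the adjusted test, and the other 9 did not.

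Summed over all peaks of a gene, 0 of the 38 genes was called, where 1.83% of the 13491 genes tested by edgeR were, and DESeq2's Wald test called 0 as well. At an unadjusted p below 0.05 there were 4, where 12.6% of all tested genes passed. They were Ulk2 (log2 fold change −0.46, SE 0.14, edgeR adjusted p = 0.0982), Pik3r4 (−0.42), Gabarapl1 (0.45) and Sqstm1 (−0.30). Ulk2 summed to 34.6, 40.2, 37.4 and 35.7 CPM in WT and 27.5, 24.7, 24.8 and 31.1 in Flcn KO, without overlap. Per library, all promoter peaks, which belonged to 34 of the genes, together summed to 1738 ± 81.3 CPM in WT and 1711 ± 78.7 in Flcn KO. The other peaks summed to 862.9 ± 26.5 and 851.4 ± 32.3, and both pairs of groups overlapped.

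A list of 41 further autophagy genes was read beside the core set: receptors for organelles, regulators, lipid transfer and fusion with the lysosome. Of their 140 tested peaks, 4 were called higher and 1 lower (3.57%, against 2.37% of all tested peaks), and the median log2 fold change was 0.04 against 0.00 over all. The smallest adjusted p was at Retreg1, which encodes a receptor for autophagy of the endoplasmic reticulum. Its peak 6.13 kb from the start (chromosome 15, 25948808 to 25949473) held 42.8, 49.3, 46.9 and 37.9 CPM in WT and 95.6, 86.3, 81.1 and 87.6 in Flcn KO. It rose by 0.99 on the log2 scale (SE 0.12; edgeR adjusted p = 5.31e-07), with no overlap between groups. A second Retreg1 peak (25916266) was called higher, at 2.52 CPM in WT and 7.10 in Flcn KO (edgeR adjusted p = 0.0234), but its groups overlapped. That call held in 8 of 14 alternatives, with adjusted p up to 0.115, and was lost with limma-voom or when WT library 1 or 3, or library 1, 2 or 3 of Flcn KO, was left out. A peak of Snx18, a membrane-remodelling sorting nexin, rose from 15.1 ± 2.91 to 27.8 ± 5.53 CPM (log2 fold change 0.87, edgeR adjusted p = 0.00806), a call lost without WT replicate 2 (adjusted p = 0.0612). A peak 65.5 kb from the start of Tbk1, a kinase that phosphorylates cargo receptors, fell from 28.2 ± 4.53 to 15.7 ± 4.76 CPM (edgeR adjusted p = 0.0153). That call was lost without WT replicate 2, Flcn KO replicate 3 or Flcn KO replicate 4 (edgeR adjusted p = 0.110, 0.0647 and 0.0780). The remaining call was at Rab7, named after its value was seen, at 0.893 CPM in WT and 4.19 in Flcn KO. It held in 7 of 14 alternatives, with adjusted p up to 0.137, and was lost with limma-voom or on leaving out any single library except replicate 1 of each group. Which gene any of these sites acts on was not measured.

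The assignment rule sets the edges of the set. The promoter peak farthest from a start was at Gabarapl1, 972 bp away, and the nearest other peak with a listed start was at Ulk1, 1427 bp away. The farthest assigned peak lay 39.7 kb outside Calcoco1, and the nearest peak excluded by distance lay 80.8 kb outside Atg10. Of the 49 promoter peaks, 7 also lay within 1000 bp of another gene's start.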

How the data were processed

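ATAC-seq was run on 4 WT and 4 Flcn KO samples, which the labels call biological replicates. The authors deposited raw counts for 57199 shared peaks in mm10 coordinates. The submitters' processing notes name MACS2 2.1.1, bedtools 2.25.0, SAMtools 1.9, Picard 2.9.4, BWA 0.7.16 and Trimmomatic 0.36. Their settings, duplicate removal, any transposase shift and whether peaks were called on pooled samples were not given in the sources used here. Even numbers made up 88.7% to 92.7% of counts per library, which is what counting both reads of a pair would give, and precision rests on the spread between libraries.

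Starts were converted to count from 1. Each peak was given to its nearest protein-coding gene (RefSeq, GRCm38.p6), and ties to the gene end nearest the peak's centre. A promoter peak lay within 1000 bp of a listed start, or of either gene end for the 6 genes without one. Peaks passing filterByExpr (minimum count 10) were tested with edgeR 4.0.16 in R 4.3.3: TMM scaling, robust quasi-likelihood fit, genotype as the only term, Benjamini-Hochberg over all 47859 tested peaks, and the same on counts summed per gene. CPM uses the TMM-scaled library size. The SE of a log2 fold change was approximated as its absolute value divided by the square root of the quasi-likelihood F statistic. The 95% intervals use this SE with a t distribution. Groups were taken from the sample titles. Alternatives included DESeq2 1.42.0 and limma 3.58.1.

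Values were named by rule: called peaks, the 5 smallest p in each direction, each gene's strongest promoter peak (all libraries for the 3 highest and 3 lowest), genes called on summed peaks, and up to 4 called peaks of the further list. Further peaks are named after their values were seen. The members, lists and tests were chosen with earlier results of these data known.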

Additional observations from a re-analysis of the deposited data

Results flagged for a closer look

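Among the 42 named peaks, 84 groups of 4 libraries were examined for 1 library far from the other 3, and 5 stood apart by Dixon's 95% criterion. Chance flags about 1 in 20 groups. At the Wipi2 promoter, WT replicate 3 held 34.7 CPM and the other WT libraries 19.5 to 21.9. At the Atg10 peak 68.2 kb from the start, WT replicate 4 held 8.36 CPM beside 5.40 to 5.80, and Flcn KO replicate 3 held 14.4 beside 9.08 to 9.78. At the Gabarap promoter, WT replicate 4 held 7.38 CPM beside 4.91 to 5.10. At the strongest Gabarapl1 promoter peak, Flcn KO replicate 2 held 4.81 CPM beside 10.2 to 10.7. None of these 4 peaks was called.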

How the results depend on the processing

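The Atg10 peak was called lower, and 0 peaks of the core genes higher, under every alternative run. Leaving out 1 library at a time gave 1 to 3 peaks called lower, with 3 only without Flcn KO replicate 1 (Atg10, Atg7 and Pik3r4). It gave 0 to 1 genes called on summed peaks (Pik3r4, again without Flcn KO replicate 1), and a promoter median between −0.199 and −0.065, the lowest without Flcn KO replicate 2. Without Flcn KO replicate 1, 1797 peaks were called over the genome, and without WT replicate 2, 665, against 1133 with all libraries. For the further list, calls higher numbered 2 with a minimum count of 30, with limma-voom and with counts divided by 2, and 2 to 3 when 1 library was left out. Calls lower numbered 0 to 2 when 1 library was left out. The cause was not tested. Same-number libraries of the 2 groups had correlations of −0.052 to 0.08, and libraries with different numbers −0.152 to 0.175. Each group had 1 library of 4 that correlated best with its own number. Correlations this small do not decide whether the samples were paired. A fit with replicate number as a block called 1375 peaks in all, 1 lower and 0 higher among the core genes, and 0 genes. Signs of uncalled promoter changes near 0 reversed when 1 library was left out: Rb1cc1 ranged from −0.100 to 0.017, Atg9a −0.104 to 0.020, Atg16l1 −0.054 to 0.088, Becn1 −0.356 to 0.138, Atg14 −0.044 to 0.140, Rubcn −0.157 to 0.039, Atg2a −0.002 to 0.190, Map1lc3a −0.192 to 0.038 and Wipi2 −0.346 to 0.079. The 32 untested peaks were too weak for a statement at this depth.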
